A study of Homo sapiens with 5 samples.

Results

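The comparison was between the culture harvested at week 2 of differentiation and the undifferentiated culture at week 0, both labelled as H9, a human embryonic stem cell line. The week 2 array and the week 0 array, which are 2 of the 5 arrays in the series, were chosen by their labels alone. The gene lists below were chosen with earlier results of these data known. The 11718 genes with a probe above background on at least 1 of the 2 arrays were compared, out of 19950 genes with a named probe. This established line was derived from a human blastocyst. The week 2 cells are labelled as a differentiation toward corneal epithelial cells, and the other arrays are labelled as weeks 4, 6 and 8 of it. Every label, the undifferentiated culture's included, gives E6 medium, replaced each day until harvest. E6 is a defined medium that, unlike the related stem cell maintenance medium, holds neither FGF2 nor TGF-beta. The labels name no other factor, no dose and no matrix, and each week is 1 culture.

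Each sample is 1 bead array, and the labels call every sample a non-replicate. No difference below therefore has a replicate check, an error or a p-value, and 2-fold is a size and not a test. In a check for mixed-up samples, 1 of the 5 arrays did not match its labels. With 1 array a week, a difference in the source of the cells and a difference in week cannot be told apart, and no value can be given without the week 2 or the week 0 array. Week 4 values are set beside the results for that reason, and they share the week 0 array with them.

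Pluripotent cells are held undifferentiated by a circuit around the transcription factors OCT4 (POU5F1), NANOG and SOX2, with FGF and Activin signals from outside. When those signals are withdrawn, the circuit shuts down and cells take germ layer fates. Ectoderm then divides according to BMP and WNT signals into neural plate, neural crest, sensory placodes and surface ectoderm, and the corneal epithelium arises from surface ectoderm. Neural crest supplies corneal stroma, and placodes and crest together supply the sensory ganglia of the head.

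All 5 arrays lay on 1 chip, per the labels. On the week 2 array 17263 probes were above background, and on the week 0 array 16993 were. A probe counted as above background at a detection p-value under 0.01. Their median signal exceeded that of the remaining probes 2.67 times at week 2 and 2.90 times at week 0. Levels are given below as normalised log2 intensities, so 1 unit is a 2-fold difference, and they compare arrays for 1 probe and not probes with each other. A call of higher or lower needed a difference of at least 2-fold and a brighter array above background. Where the dimmer array was below background, "at least" marks the fold as a bound.

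Of the 11718 genes, 1239 were higher at week 2 than at week 0, which is 10.6% of those compared, and 1087 were lower, which is 9.28%. Together 19.8% were called. The higher genes included 404 whose fold is a bound because week 0 was below background, and the lower genes included 211 with week 2 below background. At 4-fold or more, 357 genes were higher and 193 lower. The median difference over all genes was -0.03, with 5% of genes under -1.32 and 5% over 1.58. Scaling the arrays to a common 75th percentile moved that median to -0.11 and the share of higher genes among the calls to 46.0%, against 53.3% with quantile normalization. Week 4 against the same week 0 array gave 13.9% higher and 11.6% lower of its own compared genes. Another probe was available for 553 of the called genes, and for 466 of them, 84.3%, every other probe moved in the same direction, while for 233, 42.1%, every other probe also reached 2-fold.

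**Figure D1:**
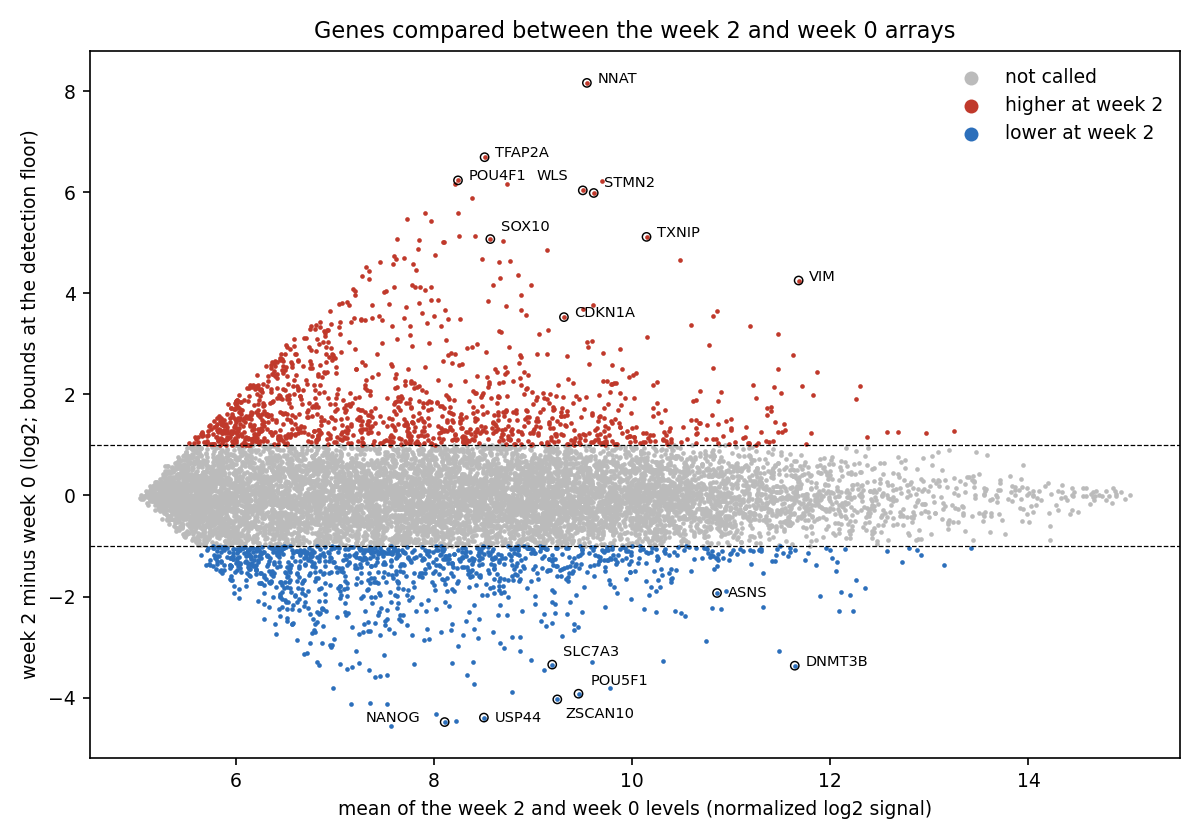
Each point is 1 of the 11718 genes compared, with the mean of its week 2 and week 0 levels (normalised log2 signal) on the x axis and the week 2 minus week 0 difference (log2) on the y axis; dashed lines mark 2-fold, red points are the 1239 genes higher at week 2 and blue points the 1087 lower. NNAT stands at the top at 8.17 and NANOG near the bottom at -4.48.

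The genes that hold the undifferentiated state were mostly lower at week 2, and several of them were among the largest decreases on the array. Of 24 measured pluripotency genes 18 were lower and 0 higher, with a median difference of -2.01 against -0.03 over all genes; the other 6 did not reach 2-fold. POU5F1 had a level of 7.50 at week 2 and 11.42 at week 0, 15.2-fold lower at week 2. NANOG, its partner in the core circuit, had levels of 5.86 at week 2 and 10.35 at week 0, a 22.4-fold difference, although its second probe differed by -0.47. Both genes were still above background at week 2 and were below it at week 4. In a bulk culture, fewer undifferentiated cells and less of these transcripts in each cell cannot be told apart.

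The promoters of some of these genes hold the letters of an OCT4 motif. OCT4 binds an octamer whose core reads TTTGCAT. That core, which on the opposite strand appears as ATGCAAA, was searched on both strands of the 300 bases from 250 before to 50 after each RefSeq gene start (GRCh38.p14). It was present in 4.508% of 27305 promoters, and in 4 of the 17 measured pluripotency genes that had a promoter in the table, NANOG, SOX2, DPPA3 and SEPHS1. A match describes the letters in this window and is not evidence of binding. NANOG (chr12:7789152-7789451, plus strand) and DPPA3 (chr12:7711183-7711482, plus strand) are shown as genes of the list that were lower at week 2, with the match in capitals.
NANOG: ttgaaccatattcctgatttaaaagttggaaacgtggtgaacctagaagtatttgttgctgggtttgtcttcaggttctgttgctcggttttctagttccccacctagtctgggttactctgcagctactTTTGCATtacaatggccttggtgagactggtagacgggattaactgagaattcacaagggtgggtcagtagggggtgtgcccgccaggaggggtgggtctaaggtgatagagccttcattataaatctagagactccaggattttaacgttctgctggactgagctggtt
DPPA3: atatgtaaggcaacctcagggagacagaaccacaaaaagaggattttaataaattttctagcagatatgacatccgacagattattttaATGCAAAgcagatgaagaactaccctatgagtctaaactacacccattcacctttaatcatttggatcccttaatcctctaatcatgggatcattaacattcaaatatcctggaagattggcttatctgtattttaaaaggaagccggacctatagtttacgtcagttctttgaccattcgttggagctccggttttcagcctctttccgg

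DPPA3, known from mouse as a maternal factor that protects DNA from demethylation, had levels of 10.95 at week 2 and 13.23 at week 0, 4.86-fold lower at week 2. SEPHS1, a selenophosphate synthetase homologue, was 3.21-fold lower at week 2, at 11.42 against 13.10 at week 0. SOX2 differed less, with levels of 10.77 at week 2 and 12.06 at week 0, 2.44-fold lower. SOX2 is also a neural and placodal factor, and at week 4 its level was 12.19, above that of week 0.

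The pluripotency genes did not move as a block. ZSCAN10, a zinc finger partner of OCT4, had levels of 7.23 at week 2 and 11.26 at week 0, 16.4-fold lower. USP44, a ubiquitin hydrolase high in stem cells, was at 6.30 at week 2 and 10.70 at week 0, 21.1-fold lower, and its second probe differed by -4.32. POLR3G, the stem cell form of an RNA polymerase III subunit, was at 7.87 at week 2 and 11.67 at week 0, 14.0-fold lower. DNMT3B, the de novo DNA methyltransferase, was at 9.96 at week 2 and 13.33 at week 0, 10.3-fold lower, with other probes between -3.52 and -0.86. The co-receptor of Nodal, CRIPTO, was below background at week 2 and at 8.35 at week 0, at least 6.59-fold lower.

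A slower group stayed bright. LIN28A, which blocks maturation of let-7 microRNAs, had levels of 12.02 at week 2 and 13.11 at week 0, 2.13-fold lower, and its paralogue LIN28B was not called at 11.82 at week 2 and 11.59 at week 0. SALL4 was 1.50-fold lower at 10.68 against 11.26 at week 0, and it was at 5.77 by week 8. For the same list week 4 against week 0 had 19 of 25 measured genes lower, with a median of -3.04. DNMT3B and HELLS, a chromatin remodeller for DNA methylation, were the 2 lower genes among 12 measured DNA methylation genes. HELLS was 3.24-fold lower at week 2 by 1 probe, while the other probe differed by 0.11, and the mean of its probes did not reach 2-fold.

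In the FGF list 6 of 23 measured genes were lower at week 2 and 1 was higher, with a median of -0.36. ERK switches on its own inhibitors, among them the feedback genes SPRY4, DUSP6 and DUSP4, and these 3 were lower. SPRY4 had levels of 7.38 at week 2 and 10.85 at week 0, a log2 difference of -3.46, with other probes between -1.74 and -0.14. DUSP6 was below background at week 2 and at 8.47 at week 0, at least 7.19-fold lower, and DUSP4 was 3.67-fold lower, at 8.26 against 10.13. The ligand FGF19 was 7.87-fold lower, at 6.75 at week 2 and 9.73 at week 0. The higher gene was the receptor FGFR4, whose second probe differed by -0.76. At week 4, 6 of 24 were lower and 6 higher. Other feedback and target genes of the pathway were not called, among them SPRY1 at -0.84, ETV5 at -0.60, ETV4 at -0.36, SPRY2 at 0.26 and PHLDA1 at 0.74.

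Of 16 measured Nodal and Activin genes 3 were lower and 3 higher, with a median of 0.13. The Nodal inhibitor LEFTY1 was below background at week 2 and at 7.42 at week 0, at least 3.47-fold lower, beside CRIPTO and the SMAD repressor SKIL. The receptor ACVR2A was 4.05-fold higher, at 10.11 at week 2 and 8.09 at week 0, and SMAD3, which carries the signal to the nucleus, was 2.89-fold higher. The receptors ACVR1B, ACVR2B and TGFBR2 were not called. NODAL itself was dim on both arrays, at 6.89 at week 2 and 6.14 at week 0.

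BMP pathway genes were mostly higher at week 2, with ligands, targets and inhibitors among them. Of 20 measured members 12 were higher and 1 lower, and their median difference was 1.43. Over the 12 members above background on both arrays the median was 0.91. Among the 7 members not called were the receptors BMPR2 and ACVR1, at 0.59 and 0.40. SMAD5 and the target ID1 were not called either, at 0.50 and 0.75. Among ligands, BMP2 had levels of 9.18 at week 2 and 6.90 at week 0, 4.85-fold higher, and BMP7 was 3.42-fold higher at 8.97 against 7.20. BMP5 was at 8.96 at week 2 and below background at week 0, at least 9.77-fold higher. BMP4, the ligand most used to direct surface ectoderm in culture, was below background on both arrays.

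Several targets and inhibitors of the pathway were among the higher genes. MSX1, a homeobox target of BMP at the border of the neural plate, was at 11.10 at week 2 and below background at week 0, at least 43.2-fold higher. MSX2 was at least 7.46-fold higher, at 8.57 at week 2. The inhibitory SMAD6 was 5.79-fold higher at 9.18 against 6.65 at week 0, and the pseudoreceptor BAMBI was 3.68-fold higher at 11.59 against 9.71. The secreted antagonist GREM1 was at least 6.09-fold higher, at 8.28 at week 2. ID3 was at least 3.89-fold higher, while ID4, of the same family of helix-loop-helix inhibitors, was 3.02-fold lower at 7.66 at week 2 and 9.25 at week 0. ID2 was 2.71-fold higher by 1 probe, and its other probe differed by -0.82. At week 4, 9 of 21 measured members were higher and 1 lower, with a median of 0.74.

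Of 35 measured WNT pathway genes 12 were higher, 4 were lower and 19 were not called. The median was 0.21, and it was -0.07 over the 22 members above background on both arrays. WLS, the carrier that brings WNT proteins to the cell surface, had levels of 12.52 at week 2 and 6.48 at week 0, 65.8-fold higher, and its other probes differed by 3.99 to 4.91. LEF1, the nuclear partner of beta-catenin, was 18.0-fold higher at 9.86 against 5.69 at week 0, with 4.36 by its other probe. The ligand WNT3A was at 9.80 at week 2 and below background at week 0, at least 17.5-fold higher. The amplifier RSPO3 and the inhibitor DKK1 were at least 19.5-fold and at least 16.3-fold higher, at 9.95 and 9.69 at week 2. The 4 lower genes were a pair of secreted decoys and a pair of receptors. SFRP1 was 3.75-fold lower, at 11.15 at week 2 and 13.06 at week 0, and SFRP2 4.60-fold lower, at 10.22 against 12.42. FZD4 was below background at week 2 and at 7.80 at week 0, at least 4.53-fold lower, and FZD8 was 2.15-fold lower, at 6.82 against 7.92, while FZD1 was higher by 1.96 on the log2 scale. TCF7L1 and TCF7L2, nuclear partners of beta-catenin like LEF1, were not called, at -0.85 and -0.48. At week 4, 16 of 39 were higher and 3 lower.

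In the Notch list 9 of 20 measured genes were higher and 2 lower, with a median of 0.82. HES3, a repressor of the HES family, had levels of 10.98 at week 2 and 5.85 at week 0, 34.9-fold higher. The ligands DLL1 and DLL3, which newborn neurons show to their neighbours, were at least 5.87-fold and 3.82-fold higher. HEY1 was 2.42-fold lower by its brightest probe and higher by 2.94 on the log2 scale by the other, so its direction is unsettled. Among 13 measured retinoic acid genes 4 were higher and 0 lower, led by the retinoic acid hydroxylase CYP26C1, at 8.49 at week 2 and 6.57 at week 0, 3.79-fold higher. RXRA and RXRG exceeded 2-fold narrowly, at 2.01-fold and 2.22-fold.

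**Figure D2:**
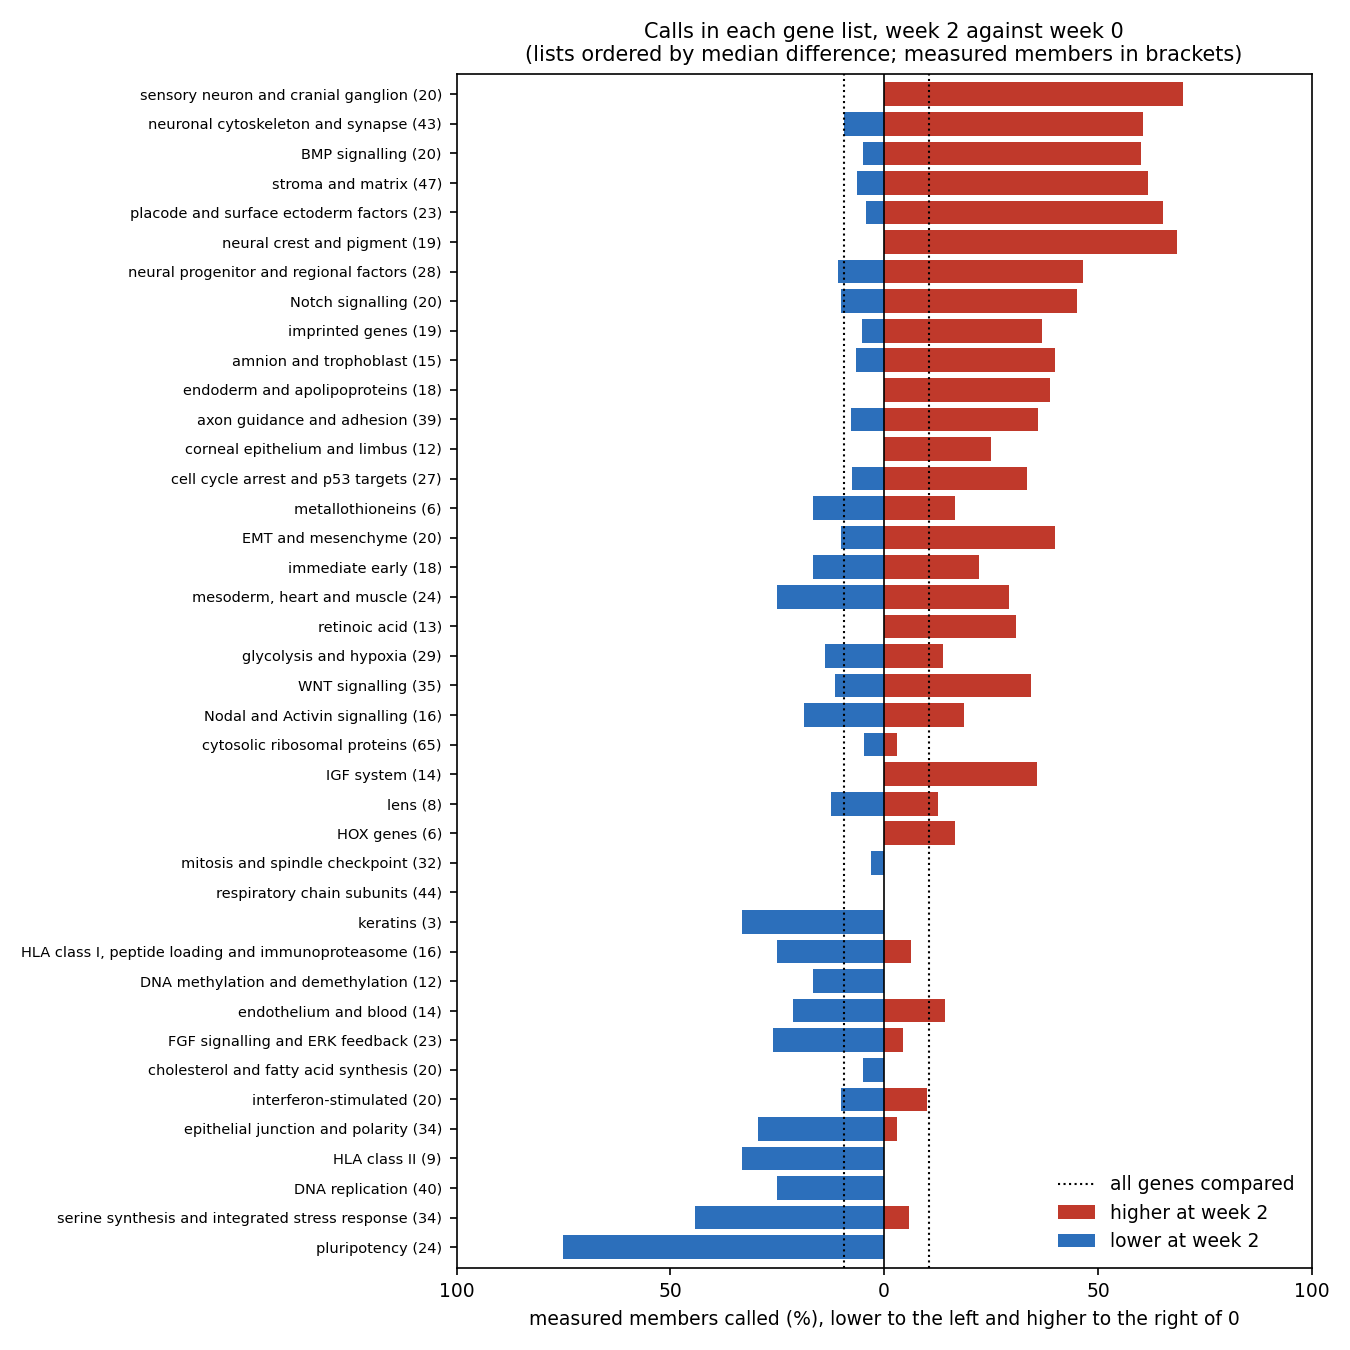
Bars give, for each of the 40 gene lists, the percentage of measured members higher at week 2 (red, right of 0) and lower at week 2 (blue, left of 0), with the number measured in brackets and lists ordered by median difference; dotted lines mark the 10.6% higher and 9.28% lower of all genes compared. Pluripotency stands at the bottom with 18 of 24 genes lower, and sensory neuron genes at the top with 14 of 20 higher. Of those 20 sensory neuron values 17 are bounds.

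Genes of sensory ganglia were the list with the highest median difference of the 40. Sensory neurons of the head form from placodes and crest under the neurogenins and then switch on the POU homeobox gene POU4F1. Of 20 measured members 14 were higher and 0 lower, with a median of 1.92, and 17 of the 20 values were bounds. A bound belongs to a gene that was compared through its brighter array alone, so the list's rank is not independent of that filter. The 3 members above background on both arrays had a median of 2.45. POU4F1 had a level of 11.91 at week 2 and was below background at week 0, at least 75.5-fold higher. It was at 7.50 at week 4 and below background at weeks 6 and 8. NEUROG1, which starts the sensory programme, was at 8.93 at week 2, at least 9.57-fold higher, and NEUROG2 was 5.47-fold higher at 8.14 against 5.69 at week 0.

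Further members of the list were also higher at week 2. In a bulk culture, genes of the same cells and genes of different cells cannot be told apart. PRPH, the intermediate filament peripherin of peripheral neurons, was at 8.95 at week 2, at least 9.72-fold higher. SST, the peptide somatostatin, was at 11.84 at week 2 and below background at week 0, at least 71.9-fold higher, and at 8.44 at week 4. PRDM12, needed for pain-sensing neurons, was at 7.84 at week 2, at least 4.49-fold higher, and was below background at weeks 4, 6 and 8. The placode factor EYA1 was at 9.19 at week 2, at least 11.5-fold higher, with other probes between 1.44 and 1.92. Of the list's members 16 were below background on both arrays, among them ISL1, POU4F3, the receptor NTRK3 and the ion channels SCN10A and TRPV1. At week 4, 8 of 16 measured members were higher and 1 lower, with a median of 0.99.

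General neuronal genes were mostly higher. Of 43 measured members 26 were higher and 4 lower, with a median of 1.70. Over the 33 members above background on both arrays the median was 1.20. STMN2, a microtubule regulator of growing axons, had levels of 12.61 at week 2 and 6.62 at week 0, 63.4-fold higher, with 5.81 by its other probe. TAGLN3 was 25.4-fold higher at 12.82 against 8.15, and TUBB3, the neuronal tubulin, 6.91-fold higher at 13.02 against 10.23. ELAVL3, a neuronal RNA-binding protein, was 14.0-fold higher at 9.75 against 5.94.

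Synaptic and filament genes were among the higher and the lower members. SNAP25, part of the vesicle fusion machinery, was at 9.05 at week 2 and below background at week 0, at least 10.4-fold higher. SYT4 was 12.9-fold higher, at 11.35 at week 2 and 7.66 at week 0, and the neurofilament NEFM was 8.22-fold higher, at 11.06 against 8.02. Of the 4 lower members, L1CAM, an adhesion protein of axons, was 8.40-fold lower at 9.95 against 13.02, and GNG3, SCG3 and the vesicle protein SYT1 were 2.76-fold, 2.01-fold and 2.00-fold lower. The filament genes NEFH and INA were not called, at 0.27 and -0.13. GAP43 and DCX, bright on both arrays, differed by -0.03 and 0.21. At week 4, 29 of 45 measured members were higher and 1 lower, with a median of 2.08.

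Among 28 measured neural progenitor and regional genes 13 were higher, 3 were lower and 12 were not called, OTX2, ZIC1 and PAX6 among these. NR2F1, a nuclear receptor of the developing head, was at 11.27 at week 2 and below background at week 0, at least 48.5-fold higher. IRX2 was 6.65-fold higher at 10.24 against 7.51 at week 0, and SIX3, a forebrain and eye factor, at least 4.15-fold higher at 7.72 at week 2. MEIS2 and DACH1 were at least 29.5-fold and at least 26.1-fold higher by their brightest probes, but other probes differed by 0.19 for MEIS2 and by -0.41 to 0.40 for DACH1. SIX6, an eye field gene, was below background at week 2 and at 9.75 at week 0, at least 17.4-fold lower, and SOX3 was 6.29-fold lower at 7.08 against 9.73; SOX2 was the other lower gene. PAX6, the eye master regulator, had levels of 8.91 at week 2 and 8.39 at week 0 and was not called. HOX genes, which pattern the trunk and hindbrain, were mostly below background. Of 29 HOX genes with a named probe 23 were below background on both arrays. HOXB13 alone was called, at 8.08 at week 2 and at least 5.33-fold higher, and it was below background at weeks 4 and 6.

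Axon guidance genes had 14 of 39 measured members higher and 3 lower. CDH6, a cadherin of crest and early neural tissue, was at 11.83 at week 2 and below background at week 0, at least 71.4-fold higher. CDH10 was 15.7-fold higher at 10.86 against 6.89. The ephrins EFNB1 and EFNA1, ligands that repel growing axons, were 7.42-fold and 6.33-fold higher, and the attractant netrin NTN1 at least 6.91-fold higher, at 8.46 at week 2.

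Surface ectoderm and placode factors were mostly higher, the AP-2 family first. AP-2 proteins mark non-neural ectoderm and neural crest. TFAP2A had a level of 12.36 at week 2 and was below background at week 0, at least 104-fold higher, and its other probe differed by 4.32. TFAP2B was at 9.76 at week 2, at least 17.0-fold higher, and TFAP2C was 7.19-fold higher at 9.94 against 7.10. PITX1 was at 8.33 at week 2, at least 6.31-fold higher, and below background at week 4. Of 23 measured members 15 were higher, and 1 was lower, OVOL2, an epithelial repressor, 5.82-fold lower at 6.91 against 9.45. Of the 23 values 14 were bounds. The median was 1.23, and it was 0.46 over the 9 members above background on both arrays. GATA2, GATA3, DLX3 and DLX5 were below background on both arrays. At week 4, 12 of 21 were higher and 3 lower.

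Neural crest genes were higher in 13 of 19 measured members and lower in 0, with a median of 1.20. SOX10, which marks migrating crest and glia, had levels of 11.11 at week 2 and 6.03 at week 0, 33.7-fold higher, and was at 7.87 at week 4. SNAI2, the crest repressor of epithelial adhesion, was at 10.41 at week 2 and below background at week 0, at least 26.8-fold higher, with 3.41 by its other probe. TWIST1 was at 9.46 at week 2, at least 13.8-fold higher, and below background at week 4. EDN3, a crest growth factor, was at least 32.5-fold higher by 1 probe, at 10.69 at week 2, and by 0.56 by the other. SOX9 was 4.59-fold higher at 9.66 against 7.46. FOXD3, an early crest gene that is also a pluripotency gene, was below background on both arrays, as were the pigment genes TYR, TYRP1 and MLANA. At week 4, 11 of 20 were higher and 2 lower, with a median of 1.14.

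**Figure D3:**
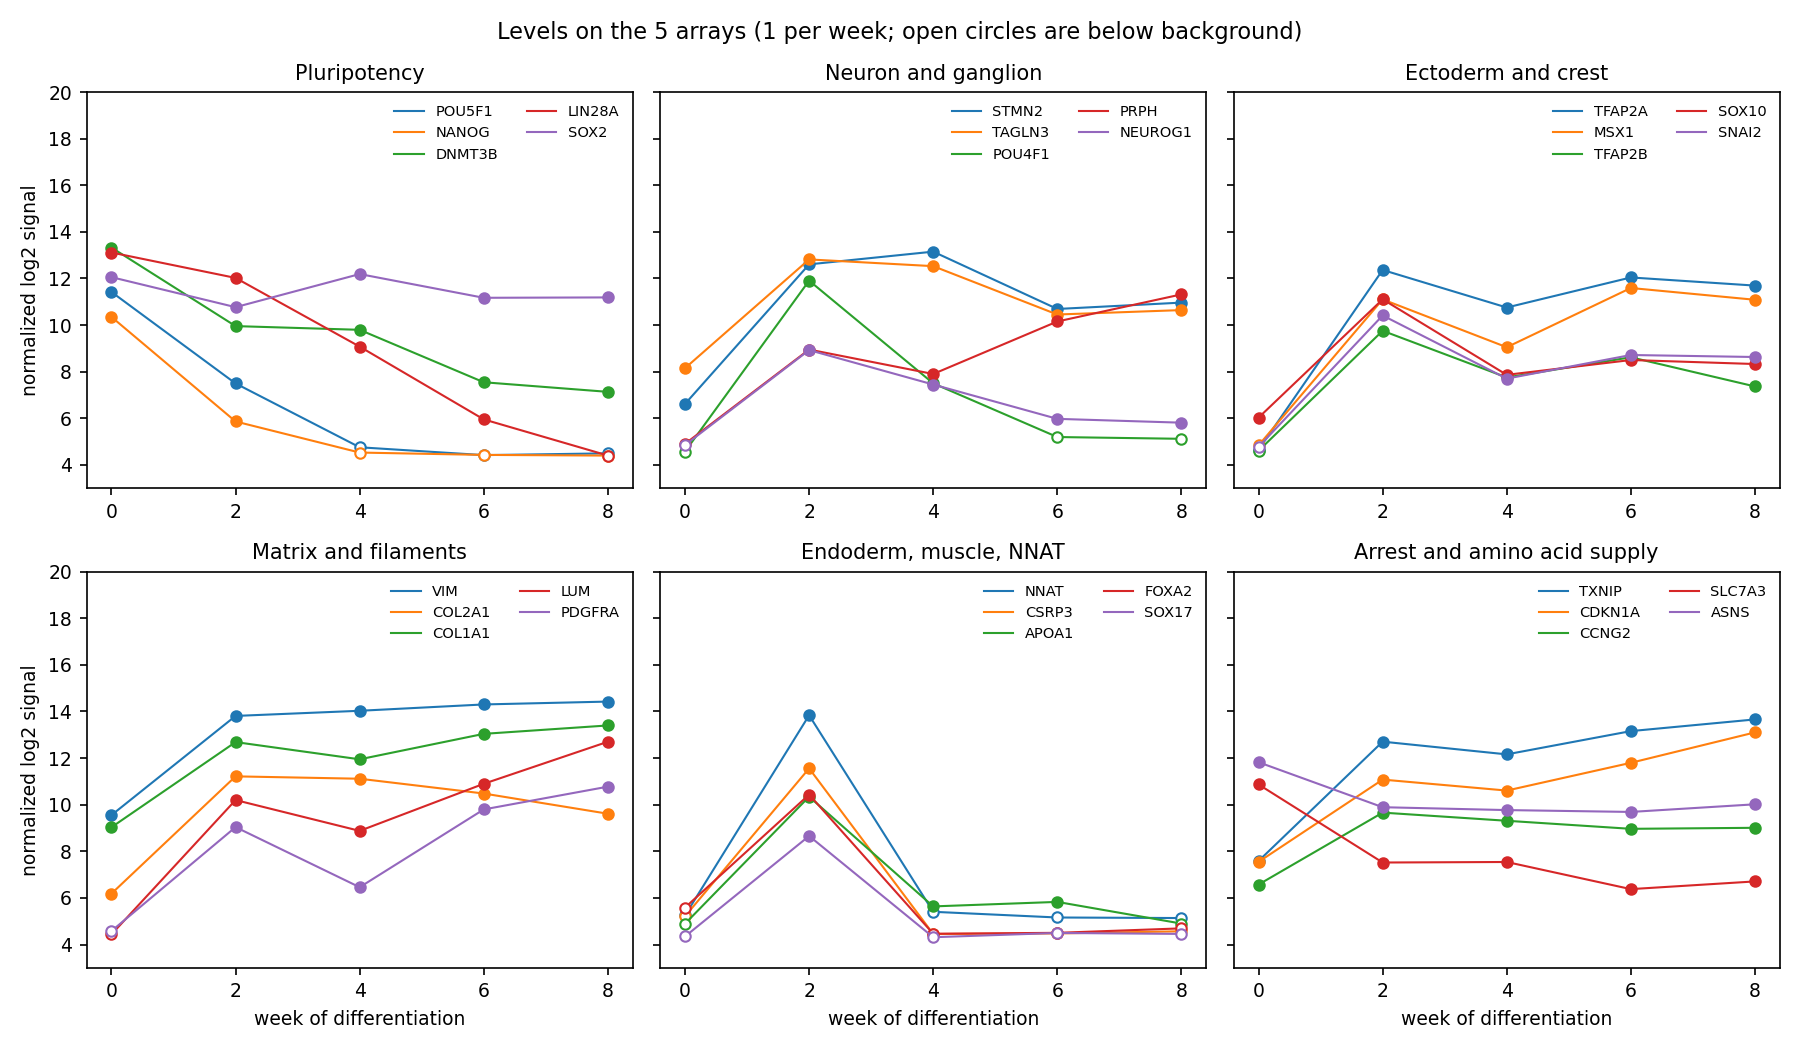
Lines join the levels (normalised log2 signal) of 30 genes on the 5 arrays against week of differentiation, 1 array a week, with open circles for values below background. POU5F1 and NANOG are lower at week 2 and below background at week 4, POU4F1 is at 11.91 at week 2 and 7.50 at week 4, and NNAT, CSRP3, FOXA2 and SOX17 are above background at week 2 and below it at the other weeks.

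Epithelial junction genes were more often lower than higher. Of 34 measured junction and polarity genes 10 were lower and 1 higher, with a median of -0.41. CLDN1, a tight junction claudin, had levels of 6.56 at week 2 and 10.11 at week 0, 11.7-fold lower. CLDN6, a claudin of stem cells, was 4.51-fold lower at 7.32 against 9.49, and ESRP1, a splicing regulator of epithelia, 3.62-fold lower at 6.76 against 8.61. EPCAM was 2.08-fold lower at 11.61 against 12.67. CDH1, the epithelial cadherin, was the exception, at 8.60 at week 2 and below background at week 0, at least 7.62-fold higher. CDH1 had 1 probe above background, so no other probe bears on it. A value below background on that probe does not show that the transcript was absent at week 0. At week 4, 12 of 32 were lower and 3 higher.

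Most keratins, those of corneal epithelium included, were below background. Among 23 keratins with a named probe 20 were below background on both arrays, KRT5, KRT14, KRT3 and KRT12 among them, and KRT8 also. KRT18 was 2.29-fold lower at 8.52 at week 2 and 9.71 at week 0, by a probe whose partner differed by -0.05. KRT16 was at 6.74 at week 2 and 5.98 at week 0, and it reached 11.44 at week 4 and 14.22 at week 8. Of 12 measured corneal genes 3 were higher, TNFRSF19, TGFBI and KLF5. TGFBI, a matrix protein of the corneal stroma, was 3.98-fold higher at 10.66 against 8.66. TNFRSF19 was 25.1-fold higher by 1 probe and by 0.25 on the log2 scale by the other. Of the 6 corneal epithelial markers, PAX6 was above background at week 2, and KRT3, KRT12, ALDH3A1, KRT5 and KRT14 were below it on both arrays.

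Below background is a limit of the probes as well as of the cells. In the respiratory chain list, which every cell uses, 6 of 50 subunits with a named probe were also below background on both arrays, COX4I1 among them. In that list 0 of 44 measured subunits were called, and the median was -0.16. Of 65 measured cytosolic ribosomal proteins 2 were higher and 3 lower, with a median of 0.10. ACTB differed by -0.36 and GAPDH by -0.04.

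Matrix genes were mostly higher, several fibrillar collagens among them. Of 47 measured stromal and matrix genes 29 were higher and 3 lower, with a median of 1.36. COL2A1, the collagen of cartilage and of the embryonic eye and notochord, had levels of 11.21 at week 2 and 6.18 at week 0, 32.7-fold higher, with 5.49 by its other probe. COL1A1 and COL1A2, which form type I collagen, were 12.6-fold and 11.8-fold higher, at 12.69 and 12.59 at week 2 against 9.03 and 9.03 at week 0. LUM, the proteoglycan lumican of corneal stroma, was at 10.20 at week 2 and below background at week 0, at least 23.1-fold higher.

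The matrix protein TNC was 14.7-fold higher, at 9.97 at week 2 and 6.10 at week 0, and the receptor PDGFRA, found on mesenchyme and crest, was at 9.04 at week 2, at least 10.3-fold higher. COL3A1 and DCN were not called, at 0.77 and 0.92. THY1 and the thrombospondins THBS1 and THBS2 were the 3 lower members. In the smaller list of epithelial to mesenchymal transition genes 8 of 20 measured members were higher and 2 lower, with a median of 0.49. VIM, the filament of mesenchymal and neural cells, was 19.1-fold higher at 13.81 against 9.55, and the smooth muscle actin ACTA2 24.8-fold higher at 10.97 against 6.34. ITGA5, a fibronectin receptor subunit, was 3.28-fold lower, and CNN1, a smooth muscle calponin, at least 2.54-fold lower. TAGLN and CD44 were not called, at 0.13 and 0.21. At week 4, 20 of 46 matrix genes were higher and 3 lower, with a median of 0.82.

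Several genes of endoderm and striated muscle were high at week 2 and at or near background at the other weeks. FOXA2, a factor of endoderm and floor plate, was at 10.43 at week 2 and below background at weeks 0, 4, 6 and 8, at least 27.2-fold higher than at week 0, although its other probe differed by -1.53. SOX17, the endoderm determinant, was at 8.66 at week 2, at least 7.93-fold higher, and below background at the other weeks. The apolipoproteins APOA1 and APOA2, made by liver and visceral endoderm, were at 10.34 and 8.79 at week 2, at least 25.5-fold and at least 8.69-fold higher. In all 7 of 18 measured endoderm genes were higher and 0 lower. All 7 were bounds, compared only because week 2 was above background. The 7 members above background on both arrays were not called and had a median of -0.13. ALB, APOB and FOXA1 were below background on both arrays, and AFP was at 7.10 at week 2 and 6.46 at week 0.

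Mesoderm, heart and muscle genes were divided between both directions, 7 higher and 6 lower of 24 measured, the early mesoderm gene EOMES among the lower. Of the 24 values 15 were bounds. The median was 0.39, and it was -0.80 over the 9 members above background on both arrays. CSRP3, a Z-disc protein of heart and slow muscle, was at 11.56 at week 2 and below background at the other 4 weeks, at least 59.2-fold higher. The troponin TNNC2 was at 8.47 at week 2, at least 6.96-fold higher, also below background at the other weeks. The muscle creatine kinase CKM was 4.51-fold lower at 7.58 against 9.76, and the cardiac troponin TNNI3 at least 4.77-fold lower. MYOD1, MYOG and NKX2-5 were below background on both arrays. Among amnion and trophoblast genes 6 of 15 were higher and 1 lower, but the hormone gene CGA, GATA3 and GABRP were below background on both arrays. The amnion and trophoblast median was 0.65, and it was -0.62 over the 5 members above background on both arrays. Of 14 measured endothelial and blood genes 2 were higher and 3 lower, 14.3% and 21.4% against 10.6% and 9.28% of all genes compared.

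The largest difference of all was NNAT, an imprinted proteolipid of developing brain and endocrine cells, at 13.84 at week 2 and below background at weeks 0, 4, 6 and 8, at least 287-fold higher than at week 0. Its other probe differed by 3.05. The week 2 array stood apart on such genes. On 51 probes of named genes it lay over 2 log2 units from all 4 other arrays, which themselves ranged over less than 1 unit, and on 48 of the 51 it was the high one. The same count was 166 for week 0, 15 for week 4, 0 for week 6 and 18 for week 8. In addition 70 genes were at least 4-fold over both neighbouring weeks at week 2, against 38 at week 4 and 1 at week 6. Genes singled out from these after their values were seen include CAT, the peroxide-degrading catalase, at 8.37 at week 2 and below background at the other weeks, whose second probe differed by 2.63. The zinc finger gene ZNF280D was at 8.32 at week 2 and below background at the other weeks, and the receptor APLNR was at 8.35 at week 2 with the same pattern. What part the week or the culture had in these values was not tested.

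Of 27 measured cell cycle arrest and p53 target genes 9 were higher, 2 were lower and 16 were not called, MDM2 and BAX among these. TXNIP, a thioredoxin inhibitor that responds to glucose, had levels of 12.70 at week 2 and 7.59 at week 0, 34.7-fold higher. CDKN1A, the p21 inhibitor of cyclin-dependent kinases, was 11.6-fold higher at 11.08 against 7.55, with 1.30 by its other probe. CCNG2, a cyclin of quiescent cells, was 8.49-fold higher at 9.66 against 6.57, and TP53INP1, a p53 target, 6.98-fold higher at 10.54 against 7.74. The 2 lower members, TP53I3 and GADD45G, differed by -1.09 and -1.02. Outside this list, PMAIP1, the p53 target NOXA that is high in stem cells, was 9.77-fold lower at 7.95 against 11.24. Its other probe differed by -3.40.

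In the replication list 10 of 40 measured genes were lower, 0 were higher and 30 were not called, with a median of -0.70. POLA1, the polymerase that starts new strands, was 3.78-fold lower at 8.25 against 10.17, and CCNE1, the cyclin of S phase entry, 3.58-fold lower at 7.65 against 9.49. The helicase subunits MCM3, MCM4 and MCM5 were 2.04-fold, 2.00-fold and 2.65-fold lower. Of 32 measured mitosis genes 1 was lower, BUB1B at 2.00-fold, and the median was -0.13. At week 4 that list had 16 of 32 genes lower and a median of -1.02, whereas replication had 10 of 40 lower and a median of -0.46. AURKB, the kinase of chromosome alignment, was at 10.29 at week 2 and 10.62 at week 0, with 9.10 at week 4 and 7.75 at week 8.

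Genes that supply amino acids formed the list with the largest share of lower members after pluripotency. The integrated stress response works through the factor ATF4, which raises amino acid transporters, tRNA synthetases and enzymes of serine synthesis. Of 34 measured members 15 were lower and 2 higher, with a median of -0.87, and every one of the 34 was above background on both arrays. SLC7A3, a carrier of arginine and lysine, had levels of 7.52 at week 2 and 10.87 at week 0, 10.2-fold lower, with -2.52 by its other probe. ASNS, asparagine synthetase, was 3.81-fold lower at 9.89 against 11.82, with -1.97 by its other probe. CHAC1, which breaks down glutathione, was 4.73-fold lower at 5.76 against 8.00.

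The transporters SLC1A5 and SLC7A5 were 3.49-fold and 2.80-fold lower, and the serine enzyme PSAT1 2.50-fold lower at 11.40 against 12.73. PHGDH, the first enzyme of serine synthesis, was not called at 13.00 against 13.88. ATF4 itself differed by -0.59 by its brightest probe. DDIT3, a stress factor downstream of ATF4, went against the list, 4.17-fold higher at 11.71 against 9.66, and CTH was 2.27-fold higher by 1 probe while its other probes differed by -1.02 to -0.61. At week 4 the list had 17 of 35 genes lower and 3 higher, with a median of -0.93, and SLC7A3 and ASNS differed there by -3.33 and -2.05.

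**Figure D4:**
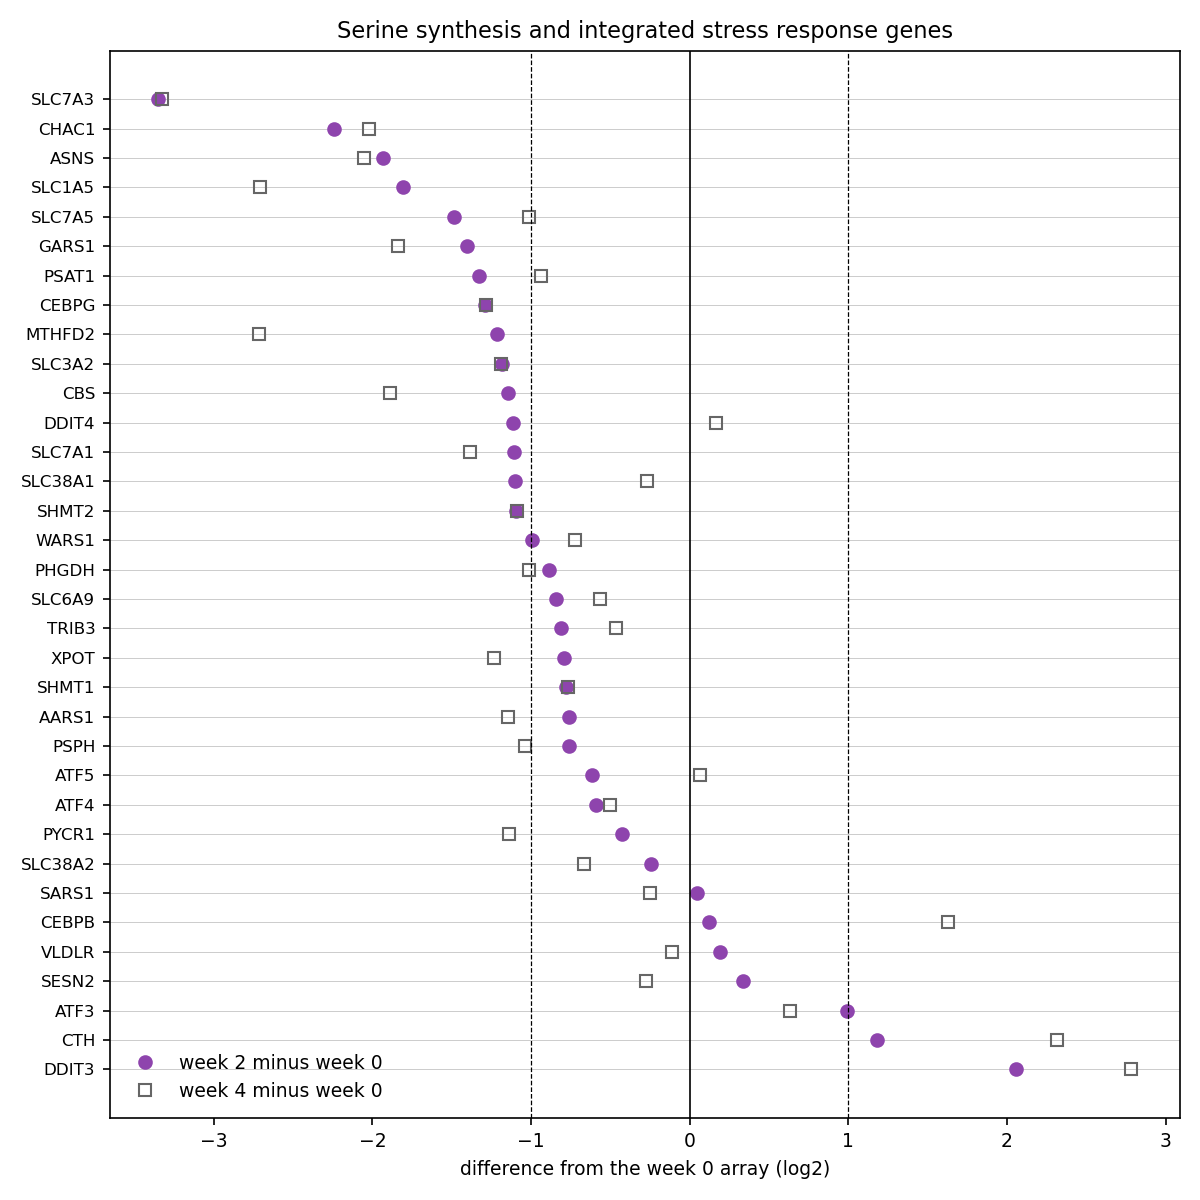
Filled circles give the week 2 minus week 0 difference (log2) of each of the 34 measured serine synthesis and integrated stress response genes, and open squares the week 4 minus week 0 difference of the same probe; dashed lines mark 2-fold, and both sets share the week 0 array. At week 2, SLC7A3 is the lowest at -3.35 and DDIT3 the highest at 2.06.

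ATF4 acts with C/EBP partners at composite elements, and the letters TGATGNAA (TTNCATCA on the other strand) were searched in the same promoter windows. They were present in 3.673% of the 27305 promoters and in 7 of the 30 list members that had a promoter, namely ASNS, ATF3, CHAC1, SLC3A2, SLC7A1, SLC38A1 and AARS1. The match is a description and no sign of binding. ASNS (chr7:97872359-97872658, minus strand) and CHAC1 (chr15:40953221-40953520, plus strand) are shown because both were lower at week 2, with the match in capitals; ASNS is written on its own strand and the match in CHAC1 lies on the other strand.
ASNS: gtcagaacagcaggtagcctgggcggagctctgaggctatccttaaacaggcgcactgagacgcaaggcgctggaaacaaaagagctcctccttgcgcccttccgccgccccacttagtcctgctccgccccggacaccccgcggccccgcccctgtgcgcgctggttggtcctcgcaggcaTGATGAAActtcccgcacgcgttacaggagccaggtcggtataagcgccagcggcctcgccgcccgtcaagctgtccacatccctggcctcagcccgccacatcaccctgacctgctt
CHAC1: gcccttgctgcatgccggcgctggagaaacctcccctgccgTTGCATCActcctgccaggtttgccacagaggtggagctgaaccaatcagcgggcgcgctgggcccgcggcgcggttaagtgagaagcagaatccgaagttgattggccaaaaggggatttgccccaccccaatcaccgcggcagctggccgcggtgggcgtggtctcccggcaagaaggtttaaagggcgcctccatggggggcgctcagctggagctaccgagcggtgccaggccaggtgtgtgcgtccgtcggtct

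Of the 7 genes with the letters, 5 were lower at week 2 by at least 2-fold, AARS1 was not called, and ATF3 differed by 0.99. In the whole list 15 of 34 measured members were lower, 44.1%, against 9.28% of all genes compared. Members without the letters were also lower, PSAT1 and SLC1A5 among them. Whether the letters bear on the difference was not tested. SLC3A2, the partner chain of SLC7A5, was 2.27-fold lower by 1 probe and by -0.39 by the other.

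Energy metabolism and growth factor carriers differed gene by gene. Of 29 measured glycolysis and hypoxia genes 4 were higher and 4 lower, 13.8% each way against 10.6% and 9.28% of all genes compared. The neuronal enolase ENO2 was 9.55-fold higher at 10.28 against 7.02, and NDRG1 at least 5.14-fold higher, while the peptide ADM was 5.22-fold lower at 9.34 against 11.73. Of 20 measured cholesterol and fatty acid genes 1 was lower, ELOVL6 at 2.13-fold, and the median was -0.40. This share of 5.0% lower was under the 9.28% of all genes compared. In the IGF list 5 of 14 measured genes were higher and 0 lower. Of the binding proteins IGFBP2, IGFBP4, IGFBP5 and IGFBP6 were higher, while IGFBP1 and IGFBP3 were not called, at 0.16 and -0.80. IGFBP6 was at least 4.64-fold higher, IGFBP4 at least 48.5-fold, at 11.27 at week 2, and IGFBP2 4.52-fold, at 8.79 against 6.62. IGFBP5 had the largest difference among genes above background on both arrays, at 12.80 at week 2 and 6.58 at week 0, 74.9-fold higher, but its other probe differed by -0.66.

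Imprinted genes, which are read from 1 parental copy, had 7 of 19 measured members higher and 1 lower. H19, a fetal growth RNA, was 4.58-fold higher at 12.32 against 10.12, and PEG10 4.08-fold higher at 10.89 against 8.86, with 1.71 by its other probe. DLK1 was at 9.32 at week 2 and below background at week 0, at least 12.6-fold higher, and reached 13.96 at week 4, but its other probe differed by 0.42. SNRPN was 2.81-fold lower at 11.31 against 12.80, and its other probes differed by -2.01 to -1.60.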

How the data were processed

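Total RNA of 5 cultures labelled H9, 1 each at weeks 0, 2, 4, 6 and 8, was purified with Trizol and DNase-treated columns and made into biotin-labelled cRNA for Illumina bead arrays, per the labels' protocols. The first deposited table gives a linear bead intensity for each probe, per the file headers, and its lowest signal of 90.0 to 98.7 on the 5 arrays shows that no background was subtracted. The deposited detection column is a fraction of at most 1, per the file headers; it rises with signal and was taken as 1 minus the detection p-value. The other deposited table holds intensity values after the authors' processing; these followed the unprocessed ones with a Spearman correlation across probes of 0.999 and had medians of 133.2 at week 2 and 133.1 at week 0. For the making of either table, the method and software are not given in the sources used here.

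All 5 arrays were background corrected, given an offset of 16, quantile normalized and put on a log2 scale with neqc of limma 3.58.1 in R 4.3.3. Python 3.11.15, pandas 2.3.3, numpy 2.4.6 and matplotlib 3.10.9 did the rest. The platform annotation pairs 30110 of 47317 probes with 1 gene symbol, 8 with several and 17199 with none listed. Symbols of 30071 probes were updated through Entrez identifiers, and the named probes cover 20045 genes. Of these, 95 genes used in the check for mixed-up samples were left out of every comparison. A gene was represented by its brightest probe, by the mean of the week 2 and week 0 arrays, among those above background (detection p-value under 0.01) on at least 1 of them. For folds, a value below background was raised, where lower, to the lowest value above background on its array. The offset and this floor understate folds of dim genes.

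Genes were called at 2-fold with the brighter array above background. With 1 array a week there is no test, and precision is limited by the number of arrays. The 40 gene lists were described by counts and medians. Named genes were the 20 largest differences each way among genes above background on both arrays, the 15 largest bounds each way, up to 12 list members by size of difference, up to 4 uncalled members of each list, list members below background on both arrays, and cell type markers. FZD8, SYT1, SCG3, GNG3 and several uncalled list members were named after their values were seen. Members, lists and rules were chosen with earlier results of these data known. Alternatives were no background correction, another scaling, the 2 arrays normalized alone, an offset of 50, a detection limit of 0.05, genes above background on both arrays alone, the mean of a gene's probes, the authors' processed values and 4-fold calls.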

Additional observations from a re-analysis of the deposited data

Results flagged for a closer look

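Probes without a gene name in the annotation also differed between the arrays, although no comparison above uses them. Of 4065 such probes above background at week 2 or week 0, 211 were higher at week 2 and 276 lower by at least 2-fold, which is 5.19% and 6.79%. No biology is read from them here, since their genes were not looked up.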

How the results depend on the processing

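Counts of calls fell without background correction, with the authors' values and at 4-fold. Without background correction 640 genes were higher and 487 lower, of which 639 and 486 were also called with it, and with the authors' processed values 640 were higher and 461 lower. At 4-fold 357 were higher and 193 lower. Scaling to a common 75th percentile, normalizing the 2 arrays alone, an offset of 50, a detection limit of 0.05, both arrays above background, the mean of probes and the week 4 array in place of week 2, chosen after seeing the data, kept both counts within 1.5 times. Of 313 named genes called, 225 kept their 2-fold call under every alternative that gave a value, with 4-fold calls left out of this count. Named genes whose fold is a bound gave no value with both arrays above background, so that alternative could lose no call. The call was lost for 72 without background correction, 74 with the authors' values, 27 with an offset of 50, 14 with the mean of probes and 3 with the other scaling. With genes above background on both arrays alone the amnion median turned to -0.62, against 0.65, the endoderm median to -0.13, against 0.62, the mesoderm, heart and muscle median to -0.80, against 0.39, and the WNT median to -0.07, against 0.21. Of 320 list medians under the alternatives 15 moved by at least 0.5. With the mean of probes CTH turned to -0.15, against 1.18, and HEY1 to 0.83, against -1.27. The cause of these shifts was not tested. No paired analysis was possible because each week has 1 array. With a median signal above background 2.67 to 2.90 times that below it, low folds near background cannot be separated from noise.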

Other observations

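Most antigen presentation genes were not called. TAP1, a peptide transporter for HLA class I, was below background at week 2 and at 8.58 at week 0, at least 7.75-fold lower, and at 7.77 at week 4. The immunoproteasome subunits PSMB8 and PSMB10 were at least 4.10-fold and 3.53-fold lower. Of 16 measured class I and peptide loading genes 4 were lower and 1 higher, HLA-C by 1 probe, whose partner differed by -0.28. Of 9 measured class II genes 3 were lower, 33.3%, and 0 higher. HLA-DMB was at 5.95 at week 2 and 8.25 at week 0, 4.92-fold lower. Interferon-stimulated genes had 2 of 20 measured members higher and 2 lower. IFI6 was 5.47-fold higher at 9.96 against 7.51, and the antiviral GTPase MX1 was at least 3.58-fold lower.

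Immediate early genes had 4 of 18 measured members higher and 3 lower, 22.2% and 16.7% against 10.6% and 9.28% of all genes compared. MYC, the growth factor-responsive regulator of stem cell proliferation, had levels of 7.47 at week 2 and 10.27 at week 0, 6.99-fold lower, with -3.12 by its other probe. SGK1, a kinase induced by serum and steroids, was 5.59-fold lower at 7.08 against 9.56, and its other probes differed by -2.42 to -2.18. FOSL2 was at 8.33 at week 2, at least 6.34-fold higher, and below background at week 4. Of 6 measured metallothioneins, the zinc-binding proteins, MT1F was 2.48-fold higher and MT1X 3.85-fold lower, and the other 4 were not called. Of 8 measured lens genes 1 was higher and 1 lower, CRYGS at least 2.20-fold higher at 6.81 and CRYBA2 at least 2.80-fold lower against 7.11 at week 0. For the lens list that is 12.5% each way, close to the shares of all genes compared.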
